A study of Homo sapiens with 4 samples.

Results

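A set of 10 genes that are widely used to recognise stem-like cancer cells were followed across 4 sorted subpopulations of 1 lung cancer cell line, out of 19775 genes that the arrays name: PROM1, CD44, CD24, ALDH1A1, ALDH1A3, POU5F1, NANOG, BMI1, MSI2 and LIN28B. All probe sets that the platform annotation gives to 1 of these genes alone were taken, 36 of the 54675 probe sets in the table. They cover 8 of the 10 genes. POU5F1 and BMI1 are each named by 1 probe set that carries other symbols too, and these 2 probe sets are described apart.

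PC14 is an established human non-small-cell lung cancer line. Its cells were first separated by flow sorting into an E-cadherin-high and an E-cadherin-low fraction. Each fraction was then divided by green fluorescence from a lentiviral vector that carries the human CD133 P1 promoter. The 4 groups are E+CD133+ (labelled epithelial and stem-like), E-CD133+ (mesenchymal and stem-like), E+CD133- (epithelial and not stem-like) and E-CD133- (mesenchymal and not stem-like). All share the PC14 background, and the CD133 sort reads an inserted promoter rather than the CD133 protein or its transcript. Whether cells without the vector were removed from the CD133-low groups is not given in the sources used here. Total RNA of each group was measured on 1 Affymetrix array, so no value below has a replicate check. The sorts were tested only in an additive fit with 1 residual degree of freedom, run as an alternative. The number of arrays limits the precision.

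PROM1 encodes CD133, a pentaspan membrane glycoprotein of cell protrusions, and its transcription starts at several alternative promoters. CD44 is a hyaluronan receptor and CD24 a small, heavily glycosylated surface protein, and both are used to sort tumour-initiating cells. ALDH1A1 and ALDH1A3 oxidise retinal to retinoic acid and account for much of the aldehyde dehydrogenase activity by which such cells are sorted in lung cancer. POU5F1 and NANOG are core transcription factors of pluripotency. BMI1 is a subunit of Polycomb repressive complex 1, MSI2 an RNA-binding protein of the Musashi family, and LIN28B an RNA-binding protein that blocks maturation of the let-7 microRNAs.

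Of the 10 genes, 5 could be measured by a probe set annotated to that gene alone: CD24, ALDH1A1, ALDH1A3, MSI2 and LIN28B. PROM1, CD44 and NANOG lay below the floor on all 4 arrays. CD24 was the marker that ran with the CD133 sort in most of its probe sets, up to 3.09-fold higher in CD133-high cells, and LIN28B was 1.53-fold and 1.73-fold higher in E-cadherin-low cells. No member probe set passed 2-fold with the same sign in both array pairs of either sort. In the text below, a CD133 ratio is CD133-high over CD133-low and is given for E-cadherin-high cells first and E-cadherin-low cells second. An E-cadherin ratio is E-cadherin-low over E-cadherin-high, in CD133-high cells first and CD133-low cells second.

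The sequences around the annotated starts of PROM1 are shown because the CD133 groups were sorted on a promoter of this gene, and those of CD24, ALDH1A1 and ALDH1A3 because these are the measured genes whose signals are set against that sort. They come from RefSeq (GRCh38.p14), 250 bases before to 50 bases after a start, 5′ to 3′ on the gene's strand. Capitals mark matches on either strand, overlapping ones included, to 3 short promoter motifs. The core of the GC box was searched as GGGCGG. The motif bound by factor NF-Y was searched as CCAAT. The core promoter element of many tissue-restricted genes was searched as TATAAA. Which annotated start corresponds to the P1 fragment of the vector is not given in the sources used here.

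PROM1 start, chr4:16083974-16084273, minus strand: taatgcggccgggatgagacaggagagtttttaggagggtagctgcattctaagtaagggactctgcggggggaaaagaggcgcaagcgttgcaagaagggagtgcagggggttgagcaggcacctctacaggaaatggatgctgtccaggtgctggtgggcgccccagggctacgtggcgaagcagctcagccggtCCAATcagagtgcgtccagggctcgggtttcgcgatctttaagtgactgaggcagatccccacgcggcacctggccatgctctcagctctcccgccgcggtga

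PROM1 start, chr4:16083680-16083979, minus strand: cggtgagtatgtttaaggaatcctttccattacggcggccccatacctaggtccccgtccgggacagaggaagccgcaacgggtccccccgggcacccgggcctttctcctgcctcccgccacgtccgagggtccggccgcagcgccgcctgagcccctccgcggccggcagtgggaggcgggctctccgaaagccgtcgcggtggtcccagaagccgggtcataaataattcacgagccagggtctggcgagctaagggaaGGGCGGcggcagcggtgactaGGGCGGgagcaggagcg

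CD24 start, chr6:106975578-106975877, minus strand: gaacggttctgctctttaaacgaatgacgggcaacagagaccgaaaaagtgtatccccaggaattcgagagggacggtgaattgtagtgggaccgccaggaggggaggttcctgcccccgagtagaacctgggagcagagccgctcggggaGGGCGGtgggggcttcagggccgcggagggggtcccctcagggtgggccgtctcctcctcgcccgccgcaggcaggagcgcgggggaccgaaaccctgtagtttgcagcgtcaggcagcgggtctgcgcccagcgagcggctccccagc

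ALDH1A1 start, chr9:72953004-72953303, minus strand: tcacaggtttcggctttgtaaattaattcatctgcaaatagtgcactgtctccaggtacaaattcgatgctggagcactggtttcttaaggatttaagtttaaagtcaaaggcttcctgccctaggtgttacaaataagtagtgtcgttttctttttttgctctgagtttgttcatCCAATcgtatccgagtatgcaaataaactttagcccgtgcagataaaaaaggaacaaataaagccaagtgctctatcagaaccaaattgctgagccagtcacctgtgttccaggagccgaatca

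ALDH1A3 start, chr15:100879581-100879880, plus strand: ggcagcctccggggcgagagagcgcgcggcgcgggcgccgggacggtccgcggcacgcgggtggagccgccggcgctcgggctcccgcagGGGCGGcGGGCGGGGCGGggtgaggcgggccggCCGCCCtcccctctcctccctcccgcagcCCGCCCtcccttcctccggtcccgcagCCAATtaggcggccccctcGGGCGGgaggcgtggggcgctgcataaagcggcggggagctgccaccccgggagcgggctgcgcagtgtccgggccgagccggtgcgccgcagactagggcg

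Of the 35116 promoter windows of this length, 45% held GGGCGG, 34.6% CCAAT and 11.5% TATAAA. PROM1 had 4 annotated starts. The first window shown, the most upstream, held 1 CCAAT and no GGGCGG, with 18 CG dinucleotides. The second held 2 GGGCGG and 32 CG, the third held 1 GGGCGG and 24 CG, and the last held no motif and 6 CG. The CD24 window, the most upstream of 3, held 1 GGGCGG and 25 CG. The aldehyde dehydrogenase windows differed from each other: that of ALDH1A1 had 7 CG, 1 CCAAT and no GGGCGG, whereas that of ALDH1A3 had 46 CG, 1 CCAAT and 6 GGGCGG. More CG than in 97.1% of all windows were found at ALDH1A3, and more than in 36.8% at ALDH1A1. No TATAAA occurred in these windows. These are matches of letters and say nothing about binding or use in PC14.

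Signals are MAS5 values on a linear scale, scaled within each array to a trimmed mean of 499.9. Without detection calls, the median of the probe sets other than controls served as the floor of each array, a signal of 53.7 to 60.3, and lower signals were set to it before ratios were taken. The 27 probe sets for bacterial RNA lay below the floor on every array, with medians of 6.5 to 15.1 and highest values of 34.2 to 54.3. CDH1, the E-cadherin gene, checked the first sort: its brighter probe set read 5548 (E+CD133+) and 3546 (E+CD133-) against 347.0 (E-CD133+) and 527.8 (E-CD133-). The epithelial genes EPCAM (3760 to 12326) and KRT18 were far above the floor on all arrays, while the brightest probe set of the keratin gene KRT19 lay below it on all 4. The 3' over 5' ratio of actin was 1.53 to 1.78.

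**Figure D1:**
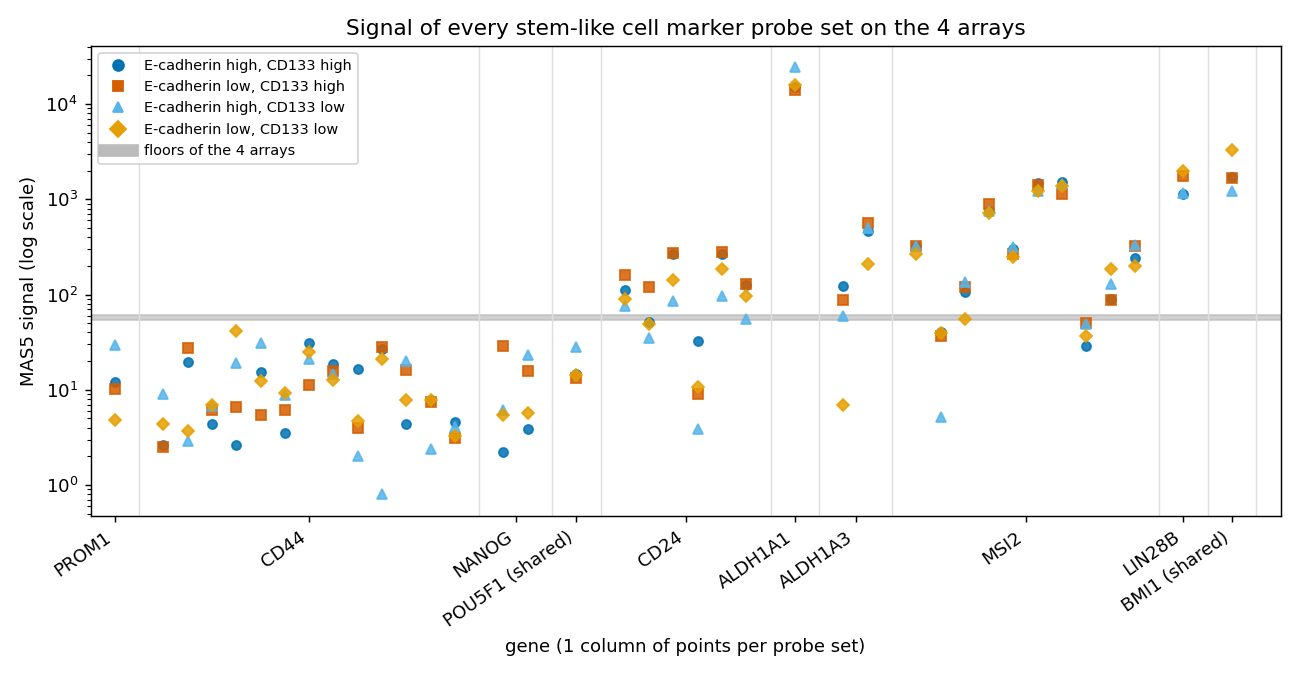
MAS5 signal (log axis) of each marker probe set on the 4 arrays, 1 column of points per probe set, grouped by gene, with the floors of the arrays (53.7 to 60.3) as a grey band. All points of PROM1, CD44, NANOG and the probe set shared by POU5F1 lie under the band, and all points of ALDH1A1, LIN28B and the probe set shared by BMI1 lie above it.

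The gene for CD133 gave no reading of its own sort. The single PROM1 probe set (204304_s_at) read 12.1 in E+CD133+ and 10.3 in E-CD133+ cells, against 29.7 in E+CD133- and 4.8 in E-CD133- cells. The highest and the lowest of these 4 signals were both in CD133-low cells, so the groups overlap. Each was below the brightest bacterial probe set of its array, the closest being 29.7 beside 34.2. Without the floor the CD133 log2 ratios would be -1.30 and 1.10, with opposite signs. A transcript too scarce for this probe set, or one it does not match, cannot be told apart from an absent one.

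CD44 was likewise not measurable. Its 13 probe sets gave 52 signals from 0.8 to 41.0, with a median of 7.9, all below the floor. The highest, 41.0, came from 204490_s_at in E-CD133- cells, on an array whose brightest bacterial probe set read 38.6. The same probe set read 18.9 in E+CD133-, 6.6 in E-CD133+ and 2.6 in E+CD133+ cells. Another probe set, 1565868_at, ran the other way, with 19.6 (E+CD133+) and 27.7 (E-CD133+) against 2.9 (E+CD133-) and 3.7 (E-CD133-). The probe sets thus gave no common direction at these low signals. With the floor lowered to the 25th percentile of each array (12.5 to 14.7), 8 of the 13 lay above it on at least 1 array and 0 on all 4.

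The pluripotency factors were below the floor too. NANOG had 2 probe sets with 8 signals from 2.2 to 28.6, and in each the E-cadherin-high order (higher in CD133-low) was the reverse of the E-cadherin-low order. The probe set that names POU5F1 (208286_x_at) also names POU5F1B, POU5F1P3 and POU5F1P4, near-identical copies, so no value belongs to POU5F1 alone. It read 14.5 in E+CD133+, 13.3 in E-CD133+, 27.8 in E+CD133- and 14.4 in E-CD133- cells.

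CD24 was the marker closest to the CD133 sort. Its probe set 209771_x_at read 264.5 in E+CD133+ and 275.4 in E-CD133+ cells, against 85.5 in E+CD133- and 140.5 in E-CD133- cells. Both CD133-high arrays lay above both CD133-low arrays. The CD133 ratio was 3.09-fold and 1.96-fold, log2 1.63 and 0.97, the second just short of the 2-fold rule. With the floor at the 65th percentile of each array the CD133-low signals fell under it and the log2 ratios were bounds of 0.83 and 0.89.

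The brightest CD24 probe set, 216379_x_at, had the same order, with 267.1 (E+CD133+), 279.2 (E-CD133+), 97.3 (E+CD133-) and 186.4 (E-CD133-). Its CD133 log2 ratios were 1.46 and 0.58, and under that higher floor the first was a bound of 0.84. Another, 208650_s_at, read 111.1, 160.0, 76.5 and 90.8 in that sequence of groups, ratios of 0.54 and 0.82. For 266_s_at the signals were 125.4, 130.2, 55.7 and 95.5, and since 55.7 is below that array's floor the first ratio is a bound of 1.13, beside 0.45. With the floor at the 65th percentile, 208650_s_at and 266_s_at had no array above it and gave no ratio. In these 4 probe sets, as deposited, E-CD133+ was highest, E+CD133+ next, then E-CD133-, and E+CD133- lowest. The CD133-high arrays were 1.04-fold to 1.05-fold apart in 3 of them and 1.44-fold apart in 208650_s_at. In those 3 their order turned on the scaling. With equal array medians the first E-cadherin log2 ratio was -0.11 for 209771_x_at and 266_s_at and -0.10 for 216379_x_at. As deposited, the E-cadherin log2 ratios were 0.06 and 0.72 for 209771_x_at, and 0.06 and 0.94 for 216379_x_at. They were 0.53 and 0.25 for 208650_s_at, and 0.05 and a bound of 0.73 for 266_s_at. In 216379_x_at and 266_s_at the second E-cadherin ratio was larger than the second CD133 ratio, 0.94 beside 0.58 and 0.73 beside 0.45.

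The remaining CD24 probe sets were dim. 208651_x_at passed the floor on 1 array, at 119.5 in E-CD133+ cells, and 209772_s_at on none, with a highest signal of 32.7 in E+CD133+ cells. All 6 CD24 probe set IDs end in _x_at or _s_at, the platform's marks for probes that match more than 1 transcript or gene. CD24 has near-identical copies elsewhere in the genome, so the share of the signal from CD24 itself is uncertain, and the probe sets are not independent readings. In bulk RNA, fewer CD24-positive cells and less CD24 RNA per cell cannot be told apart.

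Some markers of other cell types also ran with the CD133 sort. Of 18 such genes, 17 had a probe set, 12 of them above the floor on at least 1 array, and 3 were at least 2-fold higher in CD133-high cells in both pairs: the leukocyte protein PTPRC (1246 and 1102 in E+CD133+ and E-CD133+, against 345.6 and 505.0) and the proteoglycans LUM and DCN, where 2.45% of the 14083 measured genes met that rule. The other 9 measured ones met the rule in neither direction. Mean CD133 log2 ratios of the 2 pairs were -0.11 for the leukocyte markers CD3E and CSF1R, -0.08 for CD2 and -0.12 for ITGAM. For the rest they were -0.36 (PECAM1), 0.03 (HBB), 0.31 (COL1A1), 0.34 (COL3A1) and 0.99 (RGS5). Between 8 and 10 of the 17 were above the floor per array. Their summed signal was 33930 (E+CD133+) and 25350 (E-CD133+) against 25612 (E+CD133-) and 18932 (E-CD133-). The collagen gene COL3A1 made up 78.0% to 88.9% of these sums, and without it they were 4708 and 5583 against 2843 and 2994. CD14, MS4A1, VWF, CDH5 and PDGFRB lay below the floor on all 4 arrays. PTPRC, PECAM1, COL1A1, COL3A1, LUM and HBB lay above it on all 4, and the others on 1 to 3 arrays. Their part in the CD24 ratios was not tested.

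ALDH1A1 was read by 1 probe set, 212224_at, far above the floor in every group. It gave 15183 in E+CD133+, 13958 in E-CD133+, 24377 in E+CD133- and 16072 in E-CD133- cells, 231 to 425 times the floor. The E+CD133- array stood apart as the highest, and the other 3 were within a narrow range. The CD133 log2 ratios were -0.68 and -0.20, so the gene for this enzyme was not higher in cells sorted as CD133-high in either pair. Its E-cadherin ratios were -0.12 and -0.60.

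ALDH1A3, the related enzyme, had a different pattern. Its brighter probe set, 203180_at, read 462.9 in E+CD133+, 561.1 in E-CD133+, 494.1 in E+CD133- and 211.3 in E-CD133- cells. Only E-CD133- was set apart, below the other 3. The CD133 log2 ratios were therefore -0.09 and 1.41, and the E-cadherin log2 ratios 0.28 and -1.23. The CD133-high and CD133-low arrays overlapped.

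The dimmer ALDH1A3 probe set, 1558649_at, read 123.8 in E+CD133+, 87.0 in E-CD133+, 59.1 in E+CD133- and 6.9 in E-CD133- cells. Its CD133 log2 ratios were 1.07 and, as a bound, 0.61. It was also lowest in E-CD133- cells, but here the CD133 groups did not overlap. With no floor the second ratio became 3.65 and with the floor at the 25th percentile 2.62, past the 2-fold rule in both pairs, so the call for this probe set rests on where the floor is put.

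**Figure D2:**
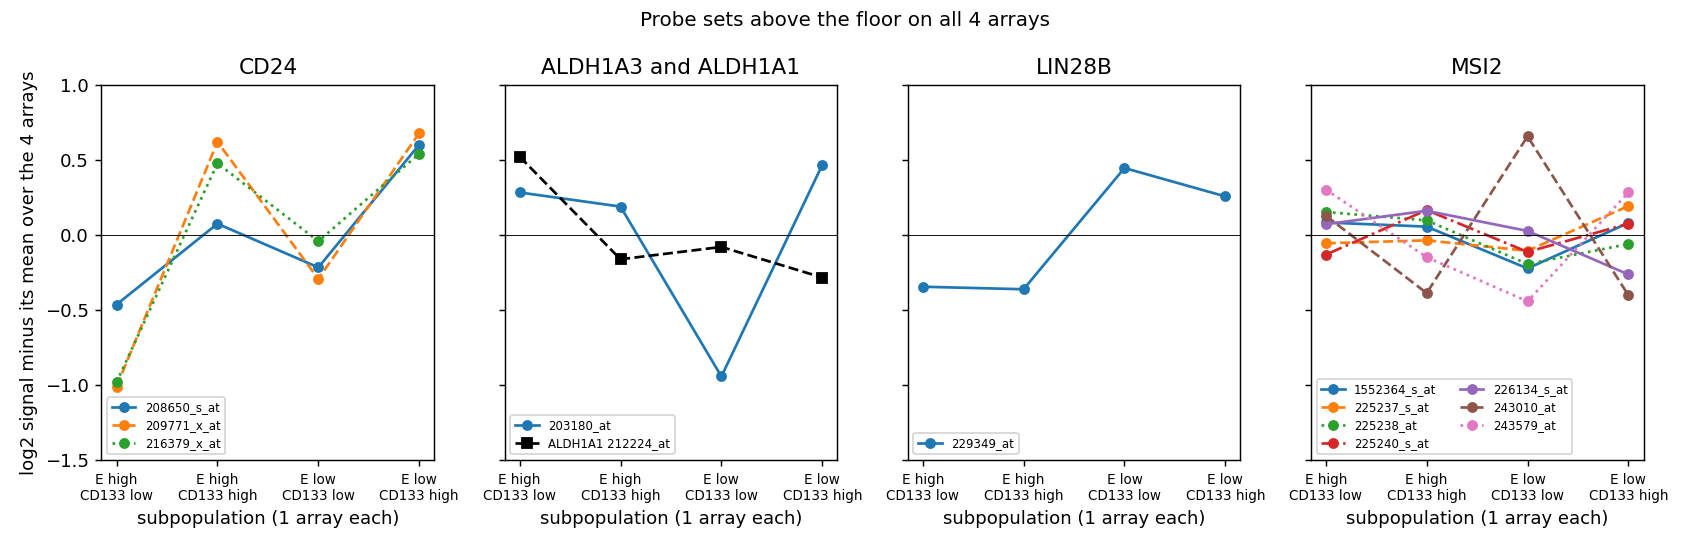
Log2 signal of each probe set above the floor on all 4 arrays, minus its own mean, in the 4 subpopulations (1 array each, no error bars) for CD24, ALDH1A3 with ALDH1A1, LIN28B and MSI2. The 3 CD24 lines are higher at both CD133-high positions, ALDH1A3 dips in E-CD133- cells alone (211.3 against 462.9 or more), LIN28B steps up with low E-cadherin, and most MSI2 lines stay near 0.

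LIN28B was higher on both E-cadherin-low arrays. Its probe set, 229349_at, read 1756 in E-CD133+ and 2001 in E-CD133- cells, against 1144 in E+CD133+ and 1157 in E+CD133- cells. The groups did not overlap, and the E-cadherin-high arrays were 1.01-fold apart. The E-cadherin ratios were 1.53-fold and 1.73-fold (log2 0.62 and 0.79), under the 2-fold rule. The CD133 log2 ratios were -0.02 and -0.19.

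MSI2 had the most probe sets above the floor, 8 of 10, and they show how far readings of 1 gene can differ. The brightest, 226134_s_at, read 1530 in E+CD133+, 1141 in E-CD133+, 1439 in E+CD133- and 1395 in E-CD133- cells. 225240_s_at read 1489, 1398, 1212 and 1227 in the same sequence. Across the 7 probe sets above the floor on all arrays, the median CD133 log2 ratios of the 2 pairs were -0.03 and 0.19, with SDs over probe sets of 0.29 and 0.57. The median E-cadherin ratios were -0.02 and -0.05, with SDs of 0.27 and 0.39.

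Other MSI2 probe sets differed in direction in E-cadherin-low cells. 243010_at read 89.4 in E+CD133+ and 88.5 in E-CD133+ cells against 127.8 in E+CD133- and 184.3 in E-CD133- cells, log2 ratios of -0.52 and -1.06. 243579_at read 242.0, 326.2, 330.6 and 197.3 in E+CD133+, E-CD133+, E+CD133- and E-CD133- cells, ratios of -0.45 and 0.73. 225233_at was below the floor in E-CD133- cells, at 55.5, and read 105.3 to 135.5 elsewhere. No direction for MSI2 as a gene follows from these values. Probe sets of 1 gene share their RNA and are not replicates of a condition.

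The probe set that names BMI1 (202265_at) also names the readthrough gene COMMD3-BMI1. It read 1731 in E+CD133+, 1688 in E-CD133+, 1219 in E+CD133- and 3311 in E-CD133- cells. The E-CD133- array was the highest and E+CD133- the lowest, so the CD133-low groups lay on either side of the CD133-high groups. The CD133 log2 ratios were 0.51 and -0.97, and the E-cadherin ratios -0.04 and 1.44.

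Among the 36 member probe sets, 17 passed the floor somewhere, 13 of them on all 4 arrays and 4 on 1 to 3 arrays. None of the 17 was at least 2-fold higher in CD133-high cells in both pairs, a rule met by 2.03% of the 26707 single-gene probe sets above the floor on at least 1 array. None was at least 2-fold lower, where the background was 0.985%. For E-cadherin-low over E-cadherin-high cells the count was 0 in each direction, with backgrounds of 0.416% (higher) and 0.434% (lower). At backgrounds this low, a count of 0 among 17 does not set the markers apart from other genes. An additive limma fit with a term for each sort and 1 residual degree of freedom likewise called 0 of 17 at a Benjamini-Hochberg threshold of 0.05, beside 2.11% of all tested probe sets for CD133 and 0.127% for E-cadherin.

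At 1.5-fold in both pairs, CD24 209771_x_at and ALDH1A3 1558649_at were higher in CD133-high cells, 2 of 17 beside a background of 6.11%, and 0 were lower (background 3.77%). LIN28B was higher in E-cadherin-low cells, 1 of 17 beside 1.94%, and 0 were lower (background 1.73%). The CD133-high arrays lay wholly above the CD133-low arrays for 7 of 17 member probe sets (background 21.5%), of which 4 were CD24, 2 MSI2 and 1 ALDH1A3. They lay wholly below for 2 of 17, ALDH1A1 and MSI2 243010_at (background 21.5%). Some gaps were narrow: 15183 (E+CD133+) against 16072 (E-CD133-) for ALDH1A1, and 756.7 (E+CD133+) against 746.6 (E+CD133-) for MSI2 225237_s_at. With equal array medians those 2 ALDH1A1 arrays were both at -0.59 (log2) against E+CD133-. Under quantile normalization the first CD133 ratio of 225237_s_at was -0.05. These 2 separations thus depend on the scaling. For the E-cadherin sort, LIN28B was wholly higher in the low arrays (1 of 17, background 12.2%) and MSI2 225238_at and 226134_s_at wholly lower (2 of 17, background 11.6%). Several of these probe sets share a gene, and the counts are a description.

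Within single pairs the ratios were larger. In E-cadherin-high cells 4 of 17 member probe sets were at least 2-fold higher with CD133 (3 of CD24 and ALDH1A3 1558649_at, background 4.89%). In E-cadherin-low cells 3 of 17 were (ALDH1A3 203180_at, CD24 208651_x_at and MSI2 225233_at, background 7.51%). No probe set was in both sets, though CD24 and ALDH1A3 were in both through different probe sets. The log2 ratios of CD24 208651_x_at (1.07) and MSI2 225233_at (1.06) are bounds set by the floor. So is that of CD24 266_s_at (1.13) in E-cadherin-high cells. The first 2 of these fell short of 2-fold when rescaled. CD24 208651_x_at gave 0.96 under quantile normalization and 0.99 with equal array medians, and MSI2 225233_at gave 0.96 and 0.98. CD24 208651_x_at is among the 17 only through the E-CD133+ array, the group where it is high, so its count is no support for a difference. At least 2-fold lower with CD133 were 0 of 17 in E-cadherin-high cells (background 3.3%) and MSI2 243010_at in E-cadherin-low cells (background 4.32%). In the E-cadherin sort, CD24 208651_x_at was at least 2-fold higher among CD133-high cells (background 3.68%) and 0 were lower (2.34%). That log2 ratio, a bound of 1.15, was likewise 0.96 and 0.99 under the 2 rescalings. Among CD133-low cells 0 were higher (2.97%) and ALDH1A3 203180_at and MSI2 225233_at were lower (2.8%). The CD133 ratio took opposite signs in the E-cadherin states and differed by at least 1 on the log2 scale for ALDH1A3 203180_at and MSI2 243579_at, 2 of the 13 probe sets above the floor on all arrays (background 8.05%). The CD133 log2 ratios of the 17 had a median of 0.00 in the first pair and 0.45 in the second, beside 0.00 and 0.00 over all 26707. For the 13 above the floor on all arrays the medians were -0.02 and 0.30. Of the 17, 5 belong to CD24 and 8 to MSI2, and some ratios are bounds, so these medians describe few genes.

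**Figure D3:**
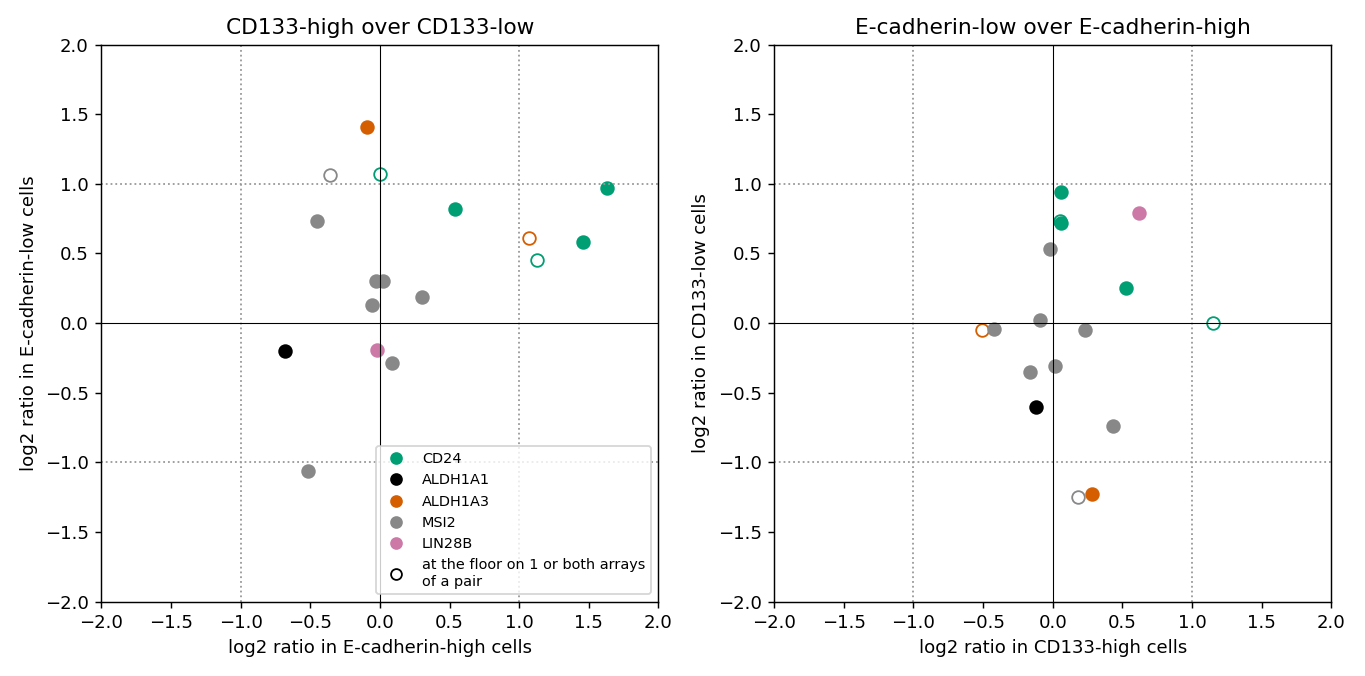
Log2 ratios of the 17 member probe sets above the floor on at least 1 array, for the CD133 sort (left, E-cadherin-high cells on the x axis and E-cadherin-low cells on the y axis) and the E-cadherin sort (right, CD133-high on x and CD133-low on y). Open points have an array at the floor, dotted lines mark 2-fold, and no point lies beyond 2-fold on both axes in the same direction.

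The genes with profiles most like those of CD24 and ALDH1A3 were sought among 10890 other genes above the floor on all arrays. The measure was the Euclidean distance between mean-centred log2 signals over the 4 arrays. Only markers whose brightest probe set spanned at least 2-fold over the arrays were searched. ALDH1A1, LIN28B and MSI2 spanned less (1.75-fold, 1.75-fold and 1.34-fold). CD24 (216379_x_at) was nearest to SLC1A1, a glutamate transporter (distance 0.07), STK3, a kinase of the Hippo pathway (0.09), and NAP1L2 (0.15). SLC1A1 read 908.8 in E+CD133+, 915.9 in E-CD133+, 308.5 in E+CD133- and 610.3 in E-CD133- cells. ALDH1A3 (203180_at) was nearest to HBP1, a transcriptional repressor (0.04), and to the noncoding genes EIF3J-DT (0.11) and GABPB1-IT1 (0.12). This likeness rests on 4 arrays alone.

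Related gene lists were read by the brightest probe set of each gene and the same 2-fold rule, met by 2.45% (higher) and 1.12% (lower) of 14083 measured genes for CD133, and by 0.476% (higher) and 0.54% (lower) for the E-cadherin sort. Among other surface markers of stem-like cancer cells, 24 of 33 genes were measured, with 1 higher in CD133-high cells, 0 lower and 23 neither. That gene was LGR4, a receptor for R-spondins, which read 3813 in E+CD133+ and 774.1 in E-CD133+ cells against 1049 in E+CD133- and 194.3 in E-CD133- cells. LGR4 and the integrin ITGB4 were the 2 genes of this list that were lower in E-cadherin-low cells, LGR4 with log2 ratios of -2.30 and -2.43 and ITGB4 with -1.11 and -1.60. Of the 2 other ITGB4 probe sets above the floor, 0 ran the same way in both pairs. The list's median CD133 log2 ratios were 0.11 and 0.52, beside 0.00 and 0.00 over all measured genes.

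Of the pluripotency network, 19 of 30 genes were measured and 0 met the rule in either direction of either sort. The list's median CD133 ratios were -0.10 and 0.00. SOX2, the partner of POU5F1 and NANOG, is named here after its values were seen: it read 88.3 in E+CD133+ cells against 5006 in E-CD133+, 3021 in E+CD133- and 4262 in E-CD133- cells. The CD133 log2 ratios, -5.10 and 0.23, differ through that single low array. LIN28A, the paralogue of LIN28B, lay below the floor on all arrays.

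Around the aldehyde dehydrogenases, the other 17 genes of the family had 12 measured members and 0 met the rule in any direction, with median CD133 ratios of 0.11 and -0.09. In the retinoic acid pathway, which uses the product of ALDH1A1 and ALDH1A3, 18 of 25 genes were measured, 0 were higher and 2 lower in CD133-high cells. RARB, a retinoic acid receptor, read 756.3 in E+CD133+ and 255.6 in E-CD133+ cells against 1743 in E+CD133- and 1667 in E-CD133- cells, log2 ratios of -1.20 and -2.71. CYP26B1, which degrades retinoic acid, read 77.6 and 147.8 against 271.9 and 364.1, ratios of -1.81 and -1.30. Its 1 other probe set above the floor did not run the same way in both pairs, whereas that of RARB did. No member of the list met the rule for the E-cadherin sort.

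Of 29 measured Polycomb genes, 1 was lower in CD133-high cells and 0 higher. This was PCGF5, a paralogue of BMI1 in Polycomb complexes, with -1.55 and a bound of -1.12, and it was also the 1 member lower in E-cadherin-low cells (a bound of -1.27, and -1.70). In the list of Musashi, LIN28 and let-7 genes, 18 of 22 were measured and 0 met the rule in any direction. MSI1, the paralogue of MSI2, lay below the floor on all arrays.

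Partners of CD44 were present although CD44 was not measurable. Of 19 measured ligands, partners and splicing factors, 2 were higher in CD133-high cells and 0 lower. SPP1, the CD44 ligand osteopontin, read 428.2 in E+CD133+ and 18750 in E-CD133+ cells against 175.7 in E+CD133- and 181.5 in E-CD133- cells. The E-CD133+ array alone gave the very high value, and the 1 other SPP1 probe set above the floor did not run the same way in both pairs. SRGN, the proteoglycan serglycin, had CD133 log2 ratios of 1.91 and 1.46. SLC7A11, the cystine transporter that CD44 variants stabilise, was the 1 gene lower in E-cadherin-low cells (-1.41 and -1.53). Among 13 measured epithelial genes, the mucin MUC1 was higher in CD133-high cells (1.09 and 1.98), and CDH1, the desmosomal plaque gene DSP and MUC1 were lower in E-cadherin-low cells.

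**Figure D4:**
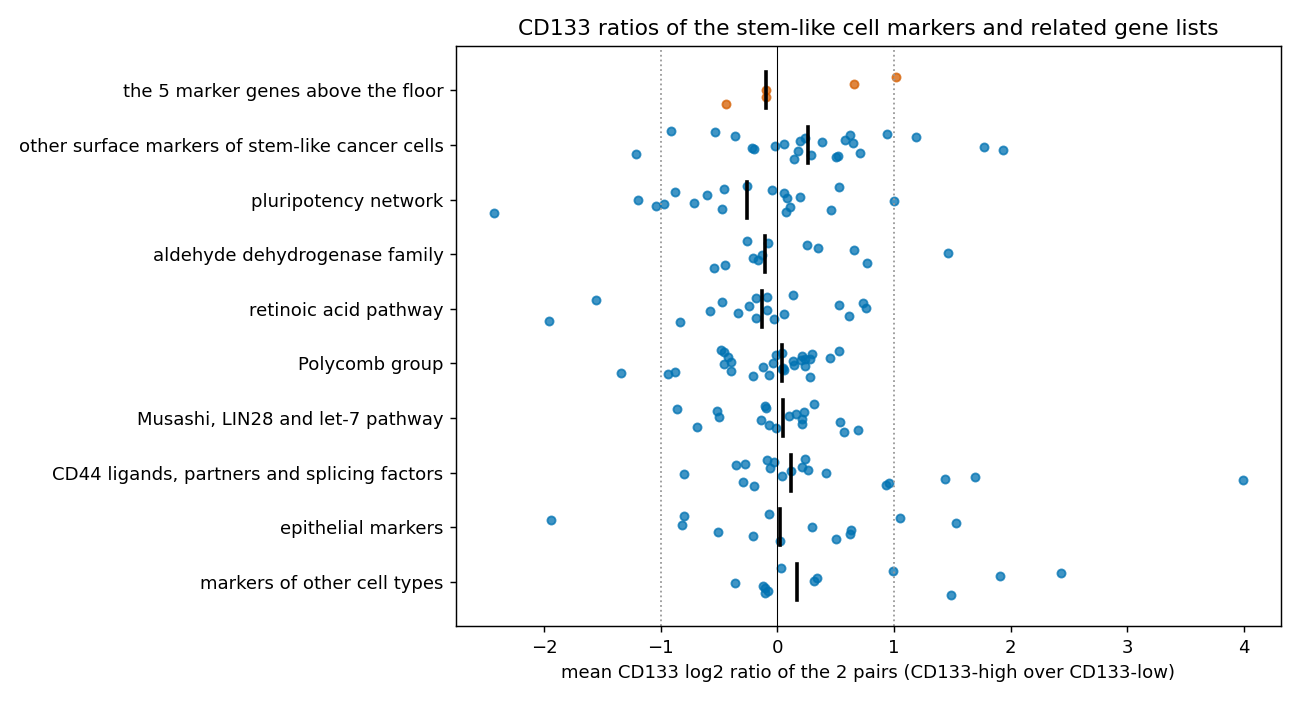
Mean CD133 log2 ratio of the 2 pairs for each measured gene (brightest probe set, 1 point per gene, bars at the median of each row's mean ratios) in the marker set and in the 9 related lists, with dotted lines at 2-fold. Of the 5 marker genes, CD24 is farthest to the right and ALDH1A1 farthest to the left, and the SPP1 point lies far right of the other CD44 partners.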

How the data were processed

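Gene expression was measured in 4 sorted PC14 subpopulations with 1 array each. The deposited values are probe set intensity, unlogged. The submitters' processing notes name MAS5 without a version. No further normalization was applied. The annotation gave 41091 probe sets 1 gene symbol and 1801 several, and 11777 were unnamed, controls included. RefSeq matched 41043 by gene ID. Signals below the 50th percentile of an array were set to it. Log2 ratios were taken within pairs of arrays that differ in 1 sorted marker, and a pair with both arrays at the floor had a ratio of 0. A probe set was counted at 2-fold or more in the same direction in both pairs, which share no array. From each related list, genes that met the rule were named, up to 4 per direction. The members and lists were chosen with earlier results of these data known. The counting was tested on simulated data. An additive limma fit (1 residual degree of freedom, Benjamini-Hochberg threshold 0.05) was an alternative. Software was R 4.3.3 with limma 3.58.1, and Python 3.11.15 with pandas 2.3.3, numpy 2.4.6 and matplotlib 3.10.9.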

Additional observations from a re-analysis of the deposited data

Results flagged for a closer look

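The CD133 ratio took opposite signs in the 2 E-cadherin states, by at least 1 on the log2 scale, in 2 of the 13 member probe sets above the floor on all 4 arrays and in the probe set shared by BMI1 and COMMD3-BMI1. Of the 19640 single-gene probe sets above the floor on all arrays, 8.05% did the same. The difference was not tested, since each group has 1 array. For ALDH1A3 203180_at the ratio in E-cadherin-low minus that in E-cadherin-high cells was 1.5. For MSI2 243579_at it was 1.18, while the other MSI2 probe sets above the floor on all arrays had smaller or no such differences. For 202265_at (BMI1 and COMMD3-BMI1) it was -1.48. In all 3 the E-CD133- array had the extreme signal, the lowest for ALDH1A3 and MSI2 243579_at and the highest for 202265_at. MSI2 225233_at was not among the 13, since its E-CD133- signal of 55.5 lay just under the floor. Its CD133 log2 ratios were -0.36 and a bound of 1.06, a difference of 1.43, also with E-CD133- lowest.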

How the results depend on the processing

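The count of member probe sets higher in CD133-high cells in both pairs was 0 as reported. It was 1 with no floor and 1 with the floor at the 25th percentile, both from ALDH1A3 1558649_at, and 2 with a 1.5-fold threshold. The count of those higher in E-cadherin-low cells went from 0 to 1 at 1.5-fold. Both counts stayed at 0 under quantile normalization, equal array medians, the floor at the 65th percentile, a 3-fold threshold and without shared probe sets. The counts of lower probe sets were 0 under every alternative run. The run with no floor counted only the 17 probe sets above the main floor. Among the dimmer ones left out, unfloored CD133 log2 ratios were -2.84 and -2.63 for CD44 204490_s_at and -1.02 and -1.18 for CD44 209835_x_at. They were 2.77 and 2.91 for CD44 1565868_at. Unfloored E-cadherin ratios were 1.33 and 1.12 for 204490_s_at, and -1.48 and -1.32 for 209835_x_at. The additive limma fit called 0 of 17 for CD133 (lowest adjusted p 0.0653, CD24 209771_x_at) and 0 for E-cadherin (lowest adjusted p 0.573). Its 1 residual degree of freedom holds the difference of the CD133 ratio between the E-cadherin states, not a spread of replicates. Above the floor on at least 1 array were 17, against 31 with the floor at the 25th percentile and 8 without shared probe sets, where no CD24 probe set is left. The mean CD133 ratio moved by more than 0.58 (log2) for 4 of the 17 with the floor at the 65th percentile, by up to 0.84, and CD24 208650_s_at and 266_s_at went from 0.68 and 0.79 to 0.00. With no floor and with the floor at the 25th percentile 1 of 17 moved that far in each sort, by 1.52 and 1.01. Quantile normalization shifted the mean ratios by up to 0.16, with 1 change of sign. The labels give no replicate numbers, so there was no replicate block to fit.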
